A study of Mus musculus with 19 samples.

Results

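The libraries described here are the 9 from female mice among the 19 bulk RNA libraries of the series, chosen by the sex and genotype in their labels. Each was made from total RNA of part of the pulverised left hippocampus of a mouse aged 4 months, taken after perfusion with saline. The 5 control mice were 5xFADHEMI, hemizygous for the 5xFAD transgenes, which express mutant human amyloid precursor protein from the neuronal Thy1 promoter. The 4 knock-in mice were 5xFADHEMI:CLUh2kbKIHO, with the same transgenes and a knock-in named for human clusterin in the homozygous state. All 9 mice therefore carried 5xFAD, and the libraries hold no transgene-free control. The labels do not give the sequence that the knock-in changes. Libraries are named below by genotype and by the replicate number of their titles, which are 1, 2, 4 and 5 for the knock-in and 1 to 5 for 5xFAD.

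Clusterin, a chaperone that also carries lipids, is released in brain mainly by astrocytes and binds misfolded proteins outside the cell, amyloid peptide among them. Its gene lies at a risk locus for Alzheimer's disease. In 5xFAD mice amyloid plaques form early and are accompanied by reactive astrocytes and by microglia that gain lysosomal and phagocytic genes. The comparison asks how hippocampal RNA in female 5xFAD mice differed when the clusterin allele was changed.

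Sequencing depth was 18.69 ± 0.593 M counts (M for mega; SD, n = 5) for 5xFAD and 21.34 ± 2.59 M (SD, n = 4) for the knock-in. Levels are given as CPM, counts per M counts of a library after TMM scaling. Differences are given as log2 of knock-in over 5xFAD from edgeR's quasi-likelihood fit of these 9 libraries alone, with a standard error (SE). The SE was derived from the test, as the size of the difference divided by the square root of its F statistic. A gene is called when its Benjamini-Hochberg adjusted p over all 17258 genes tested is under 0.05. Markers of hippocampal neurons were present in every library, with a summed level of 1372 to 1676 CPM in 5xFAD and 1509 to 1906 CPM in the knock-in, and 0 of 19 were called. A set of 8 nuclear noncoding RNAs, Meg3 and Malat1 among them, had a mean level of 8.23 ± 0.17 log2 CPM in 5xFAD (SD, n = 5) and 6.54 ± 0.42 in the knock-in (SD, n = 4), with no overlap. That level moved with genotype, as did every call below, and its part in them was not tested. Genotype also goes with the animal and library number series in the labels, so cohort and genotype cannot be told apart.

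Of the genes tested, 284 were higher in the knock-in (1.65%) and 1319 were lower (7.64%). Among the 14779 protein-coding genes, 278 were higher (1.88%) and 842 lower (5.70%). The median log2 difference over all genes was 0.00. The fall was therefore the more frequent direction by number, while the rises were small in size. In all 4 knock-in libraries at once, 583 genes lay above every 5xFAD library (3.38% of those tested) and 1647 lay below every one (9.54%). Leaving out a single library moved the number of rises between 38, without knock-in 4, and 760, without knock-in 1, and the number of falls between 791 and 1381. In bulk tissue, fewer cells of a type and less RNA per cell cannot be told apart.

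**Figure D1:**
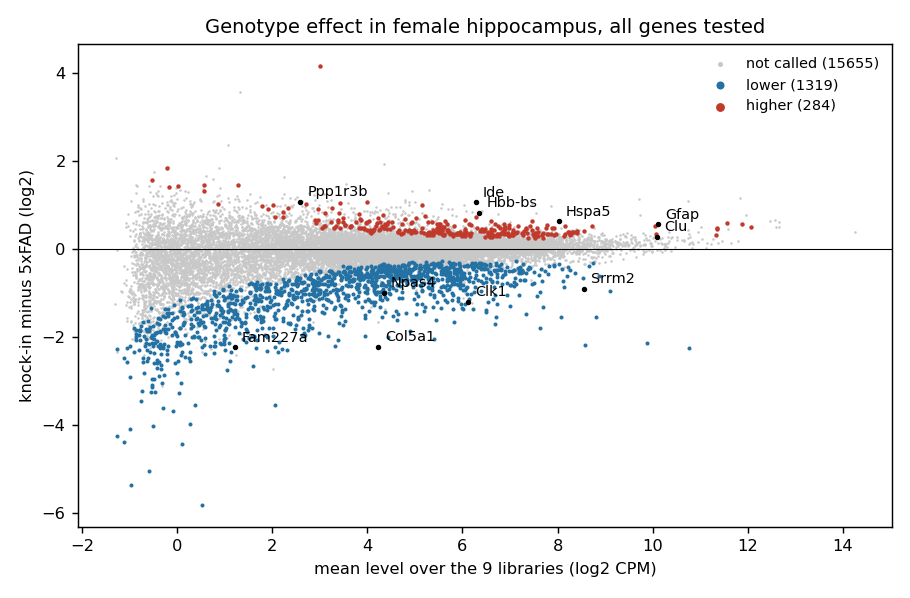
Each point is a gene, with its mean level over the 9 libraries (log2 CPM) on the x axis and the knock-in minus 5xFAD difference (log2) on the y axis; red marks the 284 genes called higher, blue the 1319 called lower. Apart from the second Chtf8 model, the called falls reach further from 0 than the called rises.

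The altered gene itself was measured with some overlap between the groups. Clu stood at 939, 1241, 1366 and 1279 CPM in knock-in 1, 2, 4 and 5 and at 801, 1118, 1136, 879 and 1040.1 CPM in 5xFAD 1 to 5. Knock-in 1 lay within the 5xFAD range and the other 3 lay above it. The difference was 0.28 (SE 0.13), with an edgeR adjusted p of 0.211 and an exact two-sided permutation p of 0.111 over 126 splits, where the smallest possible is 0.00794. Without knock-in 1 it was 0.39, with an adjusted p of 0.0477 by edgeR and an exact permutation p of 0.0357. By edgeR it was 0.22 without knock-in 4 and 0.21 without 5xFAD 1. Those libraries had the highest and the lowest summed level of choroid plexus genes, and the part of such tissue in the Clu level was not tested. Reads of a human sequence placed in the mouse gene may not all be counted on the mouse gene model, so this level need not be the whole output of the allele.

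App, the endogenous amyloid precursor gene on chromosome 16, to which reads of the human transgene may also be assigned, was at 3622 to 4151 CPM in the knock-in and 3097 to 3589 CPM in 5xFAD. The groups did not overlap, yet the difference of 0.19 (SE 0.09) did not pass the test (edgeR adjusted p = 0.186). Thy1, whose promoter drives the transgenes, differed by 0.23 (SE 0.11; edgeR adjusted p = 0.211) with overlapping groups. Among the 40 tested genes nearest to Clu on chromosome 14, 20 on either side, 2 were lower (5%, against 7.64% of all genes tested) and none was called higher. These were Slc25a37, a mitochondrial iron importer, at 14.7 to 19.5 CPM against 24.0 to 31.0, and Mir124a-1hg, the host transcript of the neuronal microRNA miR-124, at 29.5 to 85.0 CPM against 122 to 183. The call for Mir124a-1hg was lost without knock-in 4.

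The 15 largest named falls all had every knock-in library below every 5xFAD library, which held for 9.54% of all genes tested. These genes were picked by size among those called in the same libraries, so the separation adds no support to their calls. They were Fam227a, Col5a1, Snhg11, BC030499, Col19a1, Ddx46, Sbsn, Slc39a2, Sec1, Olfr1388, Col11a1, Cd46, Leng8, Tmc4 and Tnfrsf25, with differences from -2.23 to -1.69. Snhg11 has a protein-coding label in the annotation but is also 1 of the 8 nuclear noncoding RNAs above, so its fall is part of theirs. Cd46, a membrane regulator of complement, was at 1.69, 2.31, 1.98 and 3.13 CPM in the knock-in and at 7.72 to 8.39 CPM in 5xFAD, a fall by 1.82 (SE 0.19; edgeR adjusted p = 0.000261). Leng8, a protein of messenger RNA export and retention, fell by 1.80 (SE 0.19) and was at 59.5 to 119 CPM against 260 to 346 CPM. Tnfrsf25, a death receptor of lymphocytes, lay at 11.2 to 22.6 CPM in 5xFAD and 2.49 to 8.77 CPM in the knock-in. Several of these symbols are read through small or shared gene models. Slc39a2 overlaps Mettl17 on the same strand. Cd46 overlaps Gm37132 on the same strand and 4 models on the opposite strand, and which model its few reads came from was not tested. In all, 10 of the 15 overlap some other gene model in the annotation.

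The protein-coding genes that were lower had more annotated exonic sequence and more exons, both counted over the merged exons of all transcripts of a gene. Their median exonic length was 6.48 kb and their median number of exons 14, against 4.50 kb and 10 over all protein-coding genes tested. The genes that were higher had 3.78 kb and 8 exons. Median gene span hardly differed, at 26.8 kb for falls, 26.4 kb for rises and 25.2 kb for all. GC content of the longest annotated transcript was 50.2% for falls, 46.0% for rises and 49.8% for all. These are descriptions of the called sets, with lengths from the mouse GENCODE M21 annotation. The length of the transcripts present in the libraries was not measured.

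The clearest group among the protein-coding falls was that of nuclear speckle and splicing factors. Nuclear speckles are the bodies in which splicing proteins are stored, phosphorylated and released to nascent RNA. Of 46 members tested, 30 were lower (65.2%, against 7.64% of all genes tested) and none was called higher, with a median of -0.48. In 30 members every knock-in library lay below every 5xFAD library, which held for 9.54% of all genes tested. Their summed level was 6981 to 7839 CPM in 5xFAD and 5030 to 5608 CPM in the knock-in. Leaving out 1 library left 24 to 31 members lower. With the nuclear noncoding RNA level as a covariate none was called and the median was -0.17.

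All 4 CLK kinases, which phosphorylate SR proteins, were lower. Clk1 was at 32.2, 32.9, 38.9 and 57.0 CPM in the knock-in and at 94.3, 102, 93.1, 88.2 and 84.9 CPM in 5xFAD. The highest knock-in library, 5, was thus below the lowest of 5xFAD, and the fall was 1.20 (SE 0.15; edgeR adjusted p = 0.000676). Clk4 fell by 1.08 (SE 0.13), Clk3 by 0.66 (SE 0.11) and Clk2 by 0.61 (SE 0.11). Both L-type cyclins, partners of the kinases that act on splicing factors, were lower, Ccnl2 by 0.95 (SE 0.11) and Ccnl1 by 0.83 (SE 0.13).

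The large scaffold proteins of the speckle were lower too. Srrm2 stood at 237, 296, 195 and 287 CPM in the knock-in and at 448, 450, 495, 481 and 493 CPM in 5xFAD, a fall by 0.90 (SE 0.12; edgeR adjusted p = 0.00064). Son fell by 0.48 (SE 0.09) and Srrm1 by 0.49 (SE 0.07). Among SR proteins, Srsf5 fell by 0.97, Srsf11 by 0.77 and Srsf6 by 0.46. The serine- and arginine-rich proteins Pnisr and Nktr fell by 1.49 (SE 0.16) and 1.42 (SE 0.16), and Rsrp1 by 0.87 (SE 0.11).

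Components that recognise the 5′ splice site were part of the same list. Snrnp70, the U1 small ribonucleoprotein subunit, was at 73.3 to 156 CPM against 222 to 369 CPM and fell by 1.33 (SE 0.24; edgeR adjusted p = 0.00649). The U1-associated Luc7 proteins fell by 0.32 (Luc7l), 0.70 (Luc7l2) and 0.75 (Luc7l3). The exon-skipping regulator Rbm5 fell by 0.79 (SE 0.08). Tardbp, an RNA-binding protein that represses cryptic exons, was at 133 to 159 CPM against 181 to 213 CPM and fell by 0.44 (SE 0.08; edgeR adjusted p = 0.00635). The helicase Ddx17 fell by 0.66 (SE 0.10).

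Of 31 histone lysine methyltransferases, 9 were lower (29%, against 7.64% of all genes tested) and none was called higher, with a median of -0.21. Dot1l, which methylates histone H3 within the nucleosome core, was at 32.4, 36.2, 32.4 and 41.5 CPM in the knock-in against 72.5 to 98.6 CPM in 5xFAD, a fall by 1.25 (SE 0.11; edgeR adjusted p = 0.000109). The groups were far apart and the knock-in libraries close together. The MLL-family enzymes Kmt2d, Kmt2a and Kmt2b fell by 0.87 (SE 0.14), 0.81 (SE 0.18) and 0.55 (SE 0.12). Kmt5c, Setd1a, Nsd2, Setdb1 and Setd5 fell by 0.79, 0.41, 0.41, 0.39 and 0.35, although the groups of Setd5 overlapped. Leaving out knock-in 4 left 6 members lower, and the replicate block left 3. Of 26 chromatin remodelling subunits 1 was lower (3.85%, against 7.64% of all genes tested), Baz2a, by 0.38 (SE 0.08), and their median was -0.15.

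Collagens, the structural proteins of basement membranes and connective tissue, were divided. Of 40 tested, 12 were lower (30%, against 7.64% of all genes tested) and none was called higher. The median was -0.61, and 11 lay wholly below 5xFAD, against 9.54% of all genes tested. Col5a1, of fibrillar collagen V, was at 6.81, 3.65, 5.57 and 8.37 CPM in the knock-in and at 38.3, 16.3, 21.99, 42.2 and 24.7 CPM in 5xFAD, a fall by 2.22 (SE 0.33; edgeR adjusted p = 0.00259). Col5a2 fell by 1.41 (SE 0.18). Collagen VI chains Col6a1 and Col6a2 fell by 1.55 (SE 0.24) and 1.01 (SE 0.19). The basement membrane chains Col4a1 and Col4a2, which share a promoter region on chromosome 8, fell by 0.67 (SE 0.11) and 0.98 (SE 0.14).

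Col11a1, Col12a1, Col16a1 and Col19a1 fell by 1.83, 0.97, 1.06 and 1.98, with no overlap. Col7a1 and Col20a1 were called lower with differences of -1.54 and -1.45, but their groups overlapped. The chains that mark meningeal fibroblasts lay the other way without passing the test. Col1a2 stood at 14.8 to 27.9 CPM in the knock-in and 6.12 to 15.2 CPM in 5xFAD, a difference of 0.87 (SE 0.26; edgeR adjusted p = 0.0572). Col3a1 differed by 0.74 (SE 0.28; edgeR adjusted p = 0.119). Among 15 laminins and other basement membrane genes 1 was called, as lower (6.67%, against 7.64% of all genes tested). It was Agrn, the proteoglycan agrin, at 115 to 135 CPM against 199 to 238 CPM, a fall by 0.79 (SE 0.09, edgeR adjusted p = 0.000276). Leaving out 1 library left 10 to 14 collagens lower.

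**Figure D2:**
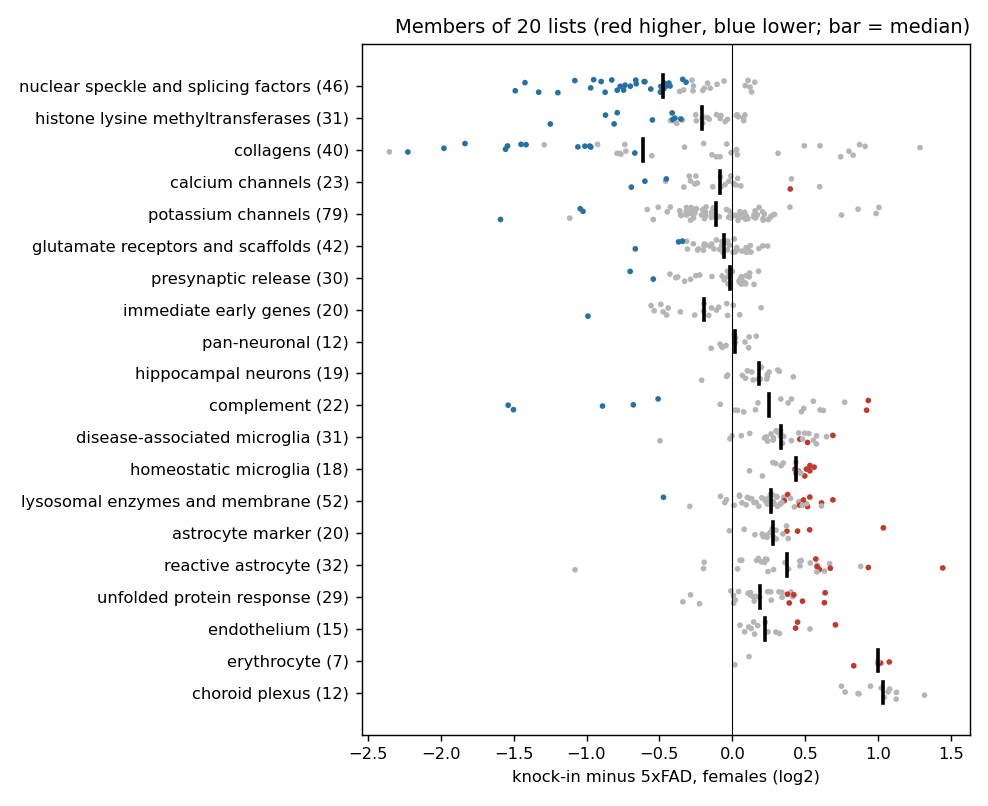
Each point is a tested gene of the list named at the left (number of members tested in brackets), placed by its knock-in minus 5xFAD difference in females (log2); red and blue mark genes called higher and lower, and the bar is the list's median. Splicing factors (median -0.48) and collagens (-0.61) lie to the left, microglial, lysosomal, astrocyte and erythroid lists to the right, and the pan-neuronal list near 0.

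No neuronal marker was called. The 12 pan-neuronal markers had a median of 0.02 and the 19 hippocampal neuron markers one of 0.18, with 16 of 19 above 0, and the nuclear-encoded respiratory chain had 0 of 80 called, with a median of 0.05. Some genes of transmitter release, potassium channels and glutamate receptors were lower, in shares below the 7.64% of all genes called lower, so their counts are not a result about these lists. Unc13b, a vesicle priming protein, was at 28.7 to 38.6 CPM against 50.6 to 63.8 CPM and fell by 0.70 (SE 0.11; edgeR adjusted p = 0.00146). Its relative Unc13a fell by 0.54 (SE 0.12), and these were the 2 of 30 presynaptic release genes called (6.67%). The list median was -0.02.

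Of 42 glutamate receptor and scaffold genes 3 were lower (7.14%), and the median was -0.06. The number was 1 in 7 of the 9 fits that left out 1 library, 2 without 5xFAD 2 and 3 without knock-in 1. Grik2, a kainate receptor subunit, fell by 0.67 (SE 0.11; edgeR adjusted p = 0.00235), with 41.3 to 56.9 CPM in the knock-in and 66.1 to 87.2 CPM in 5xFAD. The presynaptic metabotropic receptor Grm7 was called near the threshold, with a difference of -0.37 (SE 0.11; edgeR adjusted p = 0.0488), a call that was lost in 7 of the 9 fits that left out 1 library. Of 79 potassium channel genes 3 were lower (3.8%), Kcnh4 by 1.59 (SE 0.28), the sodium-activated Kcnt1 by 1.04 (SE 0.21) and the leak channel Kcnk9 by 1.02 (SE 0.14), and their list median was -0.11. Kcnk9 was at 35.5 to 47.1 CPM against 68.3 to 109 CPM.

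Of 23 calcium channel genes 3 were lower (13%, against 7.64% of all genes tested) and 1 higher (4.35%, against 1.65%). Cacna1d, Cacna1g and Cacna1e, pore subunits of L, T and R type channels, fell by 0.69 (SE 0.17), 0.60 (SE 0.16) and 0.45 (SE 0.11). The member called higher was Cacng4, by 0.40 (SE 0.11; edgeR adjusted p = 0.0461). Without knock-in 4, knock-in 5 or 5xFAD 4 none of the 3 falls was called, without 5xFAD 1 the number was 1 and without knock-in 1 it was 5; the call for Cacng4 was kept only without 5xFAD 2. Of 8 ankyrins and spectrins 1 was called, as lower (12.5%, against 7.64% of all genes tested). It was Sptbn4, the spectrin of axon initial segments, which fell by 0.57 (SE 0.15; edgeR adjusted p = 0.029). That call was lost in 5 of the 9 fits without 1 library. Reln, the secreted signal of hippocampal interneurons, fell by 0.49 (SE 0.12; edgeR adjusted p = 0.0208), a call that was lost without knock-in 4. It was the 1 of 29 GABA synapse genes called lower (3.45%, against 7.64% of all genes tested). In that list 1 was called higher (3.45%, against 1.65%), the receptor subunit Gabrg1, by 0.39 (SE 0.11), a call kept only without knock-in 5. The median of that list was 0.04.

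Among 20 immediate early genes, which neurons transcribe within minutes of firing, 1 was called, as lower (5%, against 7.64% of all genes tested). Npas4 was at 13.4, 14.98, 10.6 and 13.3 CPM in the knock-in and at 43.8, 22.3, 21.0, 24.9 and 17.9 CPM in 5xFAD, a fall by 0.99 (SE 0.24; edgeR adjusted p = 0.0259). 5xFAD 1 was the high library, and the groups did not overlap. The list median was -0.20, with 17 of 20 members below 0. Without 5xFAD 5 the number called lower was 5, and without 5xFAD 4 or any 1 of the knock-in libraries it was 0. The clock gene Per3 fell by 0.61 (SE 0.09) and was at 22.6 to 27.0 CPM against 35.7 to 42.0 CPM. Of 19 circadian clock genes 2 were lower (10.5%, against 7.64% of all genes tested) and none higher. The median of that list was 0.04, with 11 of 19 above 0.

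**Figure D3:**
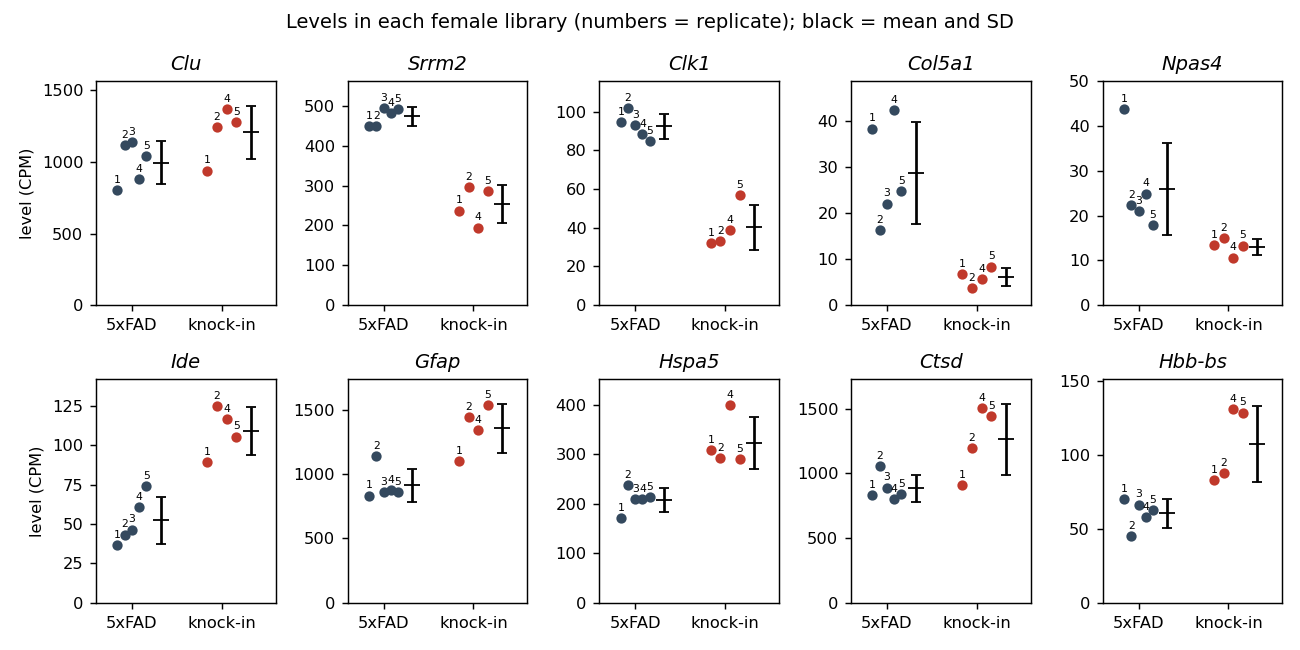
Level in CPM of 10 genes in each of the 9 libraries, labelled by replicate number, with the mean and SD of each group in black. Srrm2, Clk1, Col5a1 and Npas4 do not overlap between the groups, nor do Ide, Hspa5 and Hbb-bs, while knock-in 1 lies in the 5xFAD range for Clu, Gfap and Ctsd.

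The rises had smaller differences and stood closer to the threshold. The 15 largest named rises were Chtf8, Diaph3, Ppp1r3b, Hbb-bt, Ide, Lrch4, Gjb2, Hba-a1, Runx1, Serping1, Lum, Rassf9, C3ar1, Mamdc2 and Hbb-bs. In 9 of the 15 every knock-in library lay above every 5xFAD library, against 3.38% of all genes tested. They too were picked by size among called genes, so this adds no support to their calls. The largest rise was in a second gene model of Chtf8 at 1.39, 18.4, 13.01 and 32.8 CPM in the knock-in and 0.414 to 1.63 CPM in 5xFAD. Knock-in 1 lay within the 5xFAD range, and the longer-known Chtf8 model, which overlaps it on the same strand at 51.6 to 86.8 CPM, differed by -0.23. Reads could be split between the models. Lrch4 likewise rose by 1.04 where its overlapping same-strand model Gm20605 fell by 1.61.

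Ide, the insulin-degrading enzyme, which also cleaves amyloid peptide, was at 89.5, 125, 117 and 105 CPM in the knock-in and at 36.8, 43.3, 46.4, 60.9 and 74.2 CPM in 5xFAD. The groups did not overlap and the rise was 1.06 (SE 0.19; edgeR adjusted p = 0.00502), a call that held without any 1 library. With Ctsd it made up the 2 of 15 amyloid-degrading proteases called (13.3%, against 1.65% of all genes tested), and the median of that list was 0.05. The number was 4 without knock-in 1, and only Ide was called in 7 of the other 8 such fits. Runx1, a transcription factor of myeloid cells, was at 3.28 to 5.31 CPM against 1.65 to 2.66 CPM, a rise by 0.98 (SE 0.22). Mamdc2, a matrix proteoglycan, was at 5.22 to 7.08 CPM against 3.004 to 4.06 CPM, a rise by 0.85 (SE 0.17; edgeR adjusted p = 0.00881).

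Some microglial genes were called higher, with modest differences. Of 18 homeostatic microglia markers, 8 were higher (44.4%, against 1.65% of all genes tested) and none lower. All 18 differences were above 0, with a median of 0.44. Csf1r, the growth factor receptor on which microglia depend, was at 155, 223, 205 and 245 CPM in the knock-in and at 146, 166, 150, 143 and 160 CPM in 5xFAD, a rise by 0.44 (SE 0.12; edgeR adjusted p = 0.0337). Knock-in 1 lay within the 5xFAD range and the other 3 were higher. The summed level of the list showed the same order, with 871 CPM in knock-in 1, 1202 to 1326 CPM in the other 3 and 818 to 910 CPM in 5xFAD.

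Other homeostatic genes that rose were the orphan receptor Gpr34 by 0.56 (SE 0.13), the ectonucleotidase Entpd1 by 0.53 (SE 0.14), Olfml3 by 0.51 (SE 0.14), the purinergic receptors P2ry12 by 0.50 (SE 0.13) and P2ry13 by 0.43 (SE 0.12) and the Fc-like receptor Fcrls by 0.45 (SE 0.13). The groups overlapped for each of these and for Csf1r. The number called was 12 without knock-in 1, 0 without knock-in 4 and 1 to 4 without any 1 of the other 7 libraries. Of 31 disease-associated microglia genes, 28 lay above 0, with a median of 0.33. Of these 31, 3 were higher (9.68%, against 1.65% of all genes tested), Cd68, Ctsd and Cd9, and none lower. The number was 13 without knock-in 1, 7 without 5xFAD 2, 1 without knock-in 5, and 0 without knock-in 2, knock-in 4, 5xFAD 1 or 5xFAD 4.

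Complement genes went in both directions. Serping1, the C1 inhibitor, rose by 0.93 (SE 0.21; edgeR adjusted p = 0.0153), with 7.56 to 17.9 CPM in the knock-in and 5.64 to 8.18 CPM in 5xFAD. The anaphylatoxin receptor C3ar1 rose by 0.92 (SE 0.22), with knock-in 1 at 6.27 CPM inside the 5xFAD range. Properdin, Cfp, which stabilises the alternative pathway convertase, was at 2.14 to 3.05 CPM against 6.63 to 8.24 CPM and fell by 1.501 (SE 0.17; edgeR adjusted p = 0.000309). C4a fell by 1.54 (SE 0.35); it has a near-identical neighbour, C4b, so its reads are uncertain. The neuronal complement regulators Csmd2, Csmd1 and Csmd3 fell by 0.89, 0.68 and 0.51. In all, 2 of 22 complement genes were higher (9.09%, against 1.65% of all genes tested) and 5 lower (22.7%, against 7.64%). No rise was called without knock-in 4 and 1 without knock-in 2 or 5xFAD 4. The number of falls was 3 without knock-in 2, knock-in 5, 5xFAD 1 or 5xFAD 4. None of 24 interferon response genes was called higher and 1 was lower (4.17%, against 7.64% of all genes tested), with a list median of -0.01. It was the signal transducer Stat2, lower by 0.47 (SE 0.12, edgeR adjusted p = 0.0287), a call that was lost in 5 of the 9 fits without 1 library.

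Of 52 genes of lysosomal enzymes and membrane, 8 were higher (15.4%, against 1.65% of all genes tested) and 1 lower (1.92%, against 7.64%). The median was 0.26, with 47 above 0. Ctsd, cathepsin D, was at 909, 1194, 1508 and 1445 CPM in the knock-in and at 831, 1059, 892, 803 and 839 CPM in 5xFAD, a rise by 0.51 (SE 0.14; edgeR adjusted p = 0.0366). Knock-in 1 was again the low library of its group. Cathepsins Ctsc and Ctso rose by 0.61 (SE 0.17) and 0.49 (SE 0.11), Cd68 by 0.69 (SE 0.17), progranulin (Grn) by 0.46 (SE 0.13), legumain (Lgmn) by 0.38 (SE 0.11) and the membrane protein Lamp1 by 0.35 (SE 0.09). Ctso and Lamp1 did not overlap between the groups. Idua, a glycosidase, fell by 0.47 (SE 0.11). The number of rises was 15 without knock-in 1, 11 without 5xFAD 2 and 1 to 4 without any 1 of the other 7 libraries; the call for Idua was lost without knock-in 2.

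Promoters of the lysosomal genes were read from RefSeq (GRCm38.p6; 250 bases before to 50 after the start) because many such genes carry an E-box, the letters CACGTG, which read the same on both strands. It was present in 14 of the 41 list members with a promoter entry (34.1%) and in 7.15% of 32851 promoters. It was present in 3 of the 7 with an entry that were called higher, Ctsd, Lamp1 and Lgmn, and absent from the windows of Cd68, Ctsc, Ctso and Grn. Of all 221 genes called higher that have an entry, 24 held it (10.9%). Whether the E-box goes with the rises was not tested. The windows of Ctsd (chr7:142387778-142388077, minus strand) and Lamp1 (chr8:13158911-13159210, plus strand) are shown because they hold more than 1 copy. Capitals mark the E-boxes, of which Ctsd has 2 and Lamp1 has 4.
Ctsd: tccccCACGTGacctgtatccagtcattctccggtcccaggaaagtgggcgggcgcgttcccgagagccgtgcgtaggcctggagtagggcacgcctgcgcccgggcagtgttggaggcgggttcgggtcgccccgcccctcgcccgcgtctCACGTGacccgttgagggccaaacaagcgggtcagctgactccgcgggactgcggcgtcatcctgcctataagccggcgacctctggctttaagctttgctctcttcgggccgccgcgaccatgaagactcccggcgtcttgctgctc
Lamp1: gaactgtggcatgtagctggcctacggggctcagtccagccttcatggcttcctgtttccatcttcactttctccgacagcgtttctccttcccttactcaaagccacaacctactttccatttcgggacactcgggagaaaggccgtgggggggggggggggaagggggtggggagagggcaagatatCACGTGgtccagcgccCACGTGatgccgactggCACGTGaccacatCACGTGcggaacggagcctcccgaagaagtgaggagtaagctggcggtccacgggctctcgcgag

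A minority of astrocyte genes were called higher. Gfap, whose filaments fill reactive astrocytes, was at 1100.0, 1444, 1338 and 1537 CPM in the knock-in and at 832, 1136, 859, 874 and 857 CPM in 5xFAD. 5xFAD 2 was high in its group and exceeded knock-in 1, and the rise of 0.57 (SE 0.12; edgeR adjusted p = 0.0101) was called without any 1 library. Vimentin (Vim) rose by 0.67 (SE 0.18) and the serpin Serpina3n by 0.58 (SE 0.14), both without overlap. B3gnt5, a glycosyltransferase of glycolipid synthesis, was at 0.806 to 1.98 CPM against 0.478 to 0.580 CPM, a rise by 1.44 (SE 0.34) at a low level, and the proteoglycan Srgn rose by 0.60 (SE 0.17). With Serping1 these were the 6 of 32 reactive astrocyte genes called higher (18.8%, against 1.65% of all genes tested), at a median of 0.37. Without knock-in 4 the number was 1 and without knock-in 2 it was 3.

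Of 20 general astrocyte markers 4 were higher (20%, against 1.65% of all genes tested), none was lower and the median was 0.28. These 4 were the water channel Aqp4 by 0.53 (SE 0.15), the folate enzyme Aldh1l1 by 0.37 (SE 0.09), and the gap junction proteins connexin 30, Gjb6, by 0.45 (SE 0.10) and connexin 26, Gjb2, by 1.03 (SE 0.27). Gjb6 was at 41.3 to 58.2 CPM against 36.6 to 39.4 CPM, with no overlap. Gjb2 was at 5.12, 11.6, 10.6 and 8.89 CPM against 3.03 to 6.73 CPM, and knock-in 1 overlapped 5xFAD; connexin 26 is also made by the meninges. The number called was 1 without knock-in 4, 5xFAD 1 or 5xFAD 2, and 2 without knock-in 2, 5xFAD 3, 5xFAD 4 or 5xFAD 5.

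Serine synthesis and glycogen genes, which in brain are largely astrocytic, contained further rises. Phgdh, the first enzyme of serine synthesis, was at 85.7 to 112 CPM against 65.8 to 83.4 CPM and rose by 0.47 (SE 0.10; edgeR adjusted p = 0.0119). Psat1, the next enzyme, rose by 0.34 (SE 0.09), a call that was lost in 6 of the 9 fits without 1 library. This pair was singled out after its values were seen. Of 25 glycogen genes 4 were higher (16%, against 1.65% of all genes tested) and 1 lower (4%, against 7.64%), with a median of 0.10. Ppp1r3b, which targets phosphatase to glycogen, rose by 1.08 (SE 0.29) with 6.76 to 11.2 CPM in the knock-in and 2.11 to 6.30 CPM in 5xFAD, brain glycogen phosphorylase (Pygb) by 0.29 (SE 0.08), Pgm1 by 0.30 (SE 0.08) and Ugp2 by 0.41 (SE 0.11). Phka2, a phosphorylase kinase subunit, fell by 0.58 (SE 0.12). None of the 4 rises was called without knock-in 4, 5xFAD 1 or 5xFAD 4, and 1 or 2 were without knock-in 2, knock-in 5, 5xFAD 2 or 5xFAD 5. Of 24 glycolysis and lactate genes 1 was called, as higher (4.17%, against 1.65% of all genes tested). It was the lactate transporter Slc16a1, with a rise of 0.38 (SE 0.11), a call that was lost in 7 of the 9 fits without 1 library.

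Of 25 integrin genes 3 were higher (12%, against 1.65% of all genes tested), and the median was 0.20. They were Itgb8 by 0.73 (SE 0.18), Itgb5 by 0.52 (SE 0.14) and Itgb1 by 0.39 (SE 0.10). Itgb8, an activator of latent TGF-beta made by astrocytes, was at 82.9 to 117 CPM against 39.3 to 74.1 CPM. Itgb5 is expressed by microglia in brain, and its groups overlapped. No integrin was called without knock-in 2, knock-in 4, 5xFAD 4 or 5xFAD 5, and 1 was without 5xFAD 1 or 5xFAD 3. Of 21 genes of lipid transport and clusterin receptors none was called higher and 2 were lower (9.52%, against 7.64% of all genes tested), the clusterin and lipoprotein receptor Lrp1 by 0.39 (SE 0.11; edgeR adjusted p = 0.0346) and the transporter Abca7, an Alzheimer risk gene, by 0.38 (SE 0.10; edgeR adjusted p = 0.0398). Neither overlapped between the groups, although Lrp1 in knock-in 1, at 404 CPM, was next to 5xFAD 1 at 406 CPM. Neither was called without knock-in 2, knock-in 4, 5xFAD 2, 5xFAD 3 or 5xFAD 4, and 1 was without any 1 of knock-in 5, 5xFAD 1 and 5xFAD 5.

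Some genes of protein folding in the endoplasmic reticulum were higher. When unfolded protein builds up there, the sensors IRE1, PERK and ATF6 raise the transcription of chaperones. Of 29 genes of this unfolded protein response, 6 were higher (20.7%, against 1.65% of all genes tested) and none lower. In this list 8 lay wholly above 5xFAD, against 3.38% of all genes tested, and the median was 0.19. The summed level was 2785 to 3399 CPM in the knock-in and 2243 to 2554 CPM in 5xFAD, without overlap. Hspa5, the chaperone BiP, was at 309, 293, 400 and 291 CPM in the knock-in and at 171, 238, 209, 210 and 213 CPM in 5xFAD, a rise by 0.63 (SE 0.12; edgeR adjusted p = 0.00452) that was called without any 1 library.

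The disulphide isomerases Pdia4 and Pdia3 rose by 0.63 (SE 0.15) and 0.48 (SE 0.11), the transcription factor Xbp1 by 0.42 (SE 0.11), calnexin (Canx) by 0.39 (SE 0.09) and the chaperone Hsp90b1 by 0.38 (SE 0.10), each without overlap. The number called was 2 without knock-in 4 or 5xFAD 4, 9 without knock-in 1 and 4 to 6 without any 1 of the other 6 libraries. Genes of the secretory route that were picked after their values were seen lay in the same direction, and the calls for Stt3a, P4hb and Tmed7 were each lost in 6 of the 9 fits without 1 library and that for Magt1 in 4. They were the translocon proteins Ssr3 (0.38, SE 0.09) and Sec62 (0.34, SE 0.08), the oligosaccharyltransferase subunits Stt3a (0.35, SE 0.09) and Magt1 (0.62, SE 0.15), the isomerase P4hb (0.36, SE 0.10) and the cargo receptors Tmed5 (0.43, SE 0.10) and Tmed7 (0.43, SE 0.12). Peroxiredoxins Prdx1, Prdx4 and Prdx6, also picked after their values were seen, rose by 0.51, 0.61 and 0.56, and the call for Prdx4 was lost in 6 such fits.

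The promoters of this list were searched on both strands for the endoplasmic reticulum stress element, which is CCAAT and CCACG with 9 bases of any kind between them and is the site through which ATF6 and XBP1 act. It was present in 8 of the 26 list members with a promoter entry (30.8%) and in 0.119% of 32851 promoters, and in none of the 39 promoters that hold it do its bases overlap an E-box. It was present in Hspa5, Hsp90b1 and Canx, which were called higher, and in Calr, Creld2, Dnajc3, Pdia6 and Syvn1, which were not. The windows of Pdia3, Pdia4 and Xbp1 hold no match. Of all 221 genes called higher that have an entry, 3 held the element (1.36%). Whether it goes with the rises was not tested. The windows of the 3 called genes are shown from RefSeq (GRCm38.p6), with the element in capitals. They are Hspa5 (chr2:34771840-34772139, plus strand), Hsp90b1 (chr10:86705395-86705694, minus strand), in which 1 of the 2 matches is on the opposite strand, and Canx (chr11:50325624-50325923, minus strand).
Hspa5: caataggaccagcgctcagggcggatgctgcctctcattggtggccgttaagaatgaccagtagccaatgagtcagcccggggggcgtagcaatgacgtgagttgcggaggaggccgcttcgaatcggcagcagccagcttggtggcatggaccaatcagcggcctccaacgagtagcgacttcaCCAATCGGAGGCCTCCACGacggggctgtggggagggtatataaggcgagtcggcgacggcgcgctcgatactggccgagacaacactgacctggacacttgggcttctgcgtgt
Hsp90b1: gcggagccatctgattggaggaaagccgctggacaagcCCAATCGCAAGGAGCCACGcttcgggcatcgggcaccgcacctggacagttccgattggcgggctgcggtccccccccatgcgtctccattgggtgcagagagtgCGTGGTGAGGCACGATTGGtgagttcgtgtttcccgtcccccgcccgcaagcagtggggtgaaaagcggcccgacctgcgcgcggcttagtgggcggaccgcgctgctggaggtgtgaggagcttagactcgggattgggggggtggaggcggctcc
Canx: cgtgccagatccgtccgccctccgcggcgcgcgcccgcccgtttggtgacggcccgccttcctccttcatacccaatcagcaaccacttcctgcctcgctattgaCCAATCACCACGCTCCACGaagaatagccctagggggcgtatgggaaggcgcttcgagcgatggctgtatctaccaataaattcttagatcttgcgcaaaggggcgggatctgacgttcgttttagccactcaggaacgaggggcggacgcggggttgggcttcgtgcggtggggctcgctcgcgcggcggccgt

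Some red cell and vessel genes were higher. Such genes, and those of meninges and choroid plexus, vary with how much of each tissue a dissection holds. Hbb-bs, an adult beta globin, was at 83.0, 87.8, 131 and 129 CPM in the knock-in and at 70.3, 45.0, 66.4, 58.2 and 62.7 CPM in 5xFAD, a rise by 0.83 (SE 0.16; edgeR adjusted p = 0.00837). Hba-a1 and Hbb-bt rose by 1.00 (SE 0.19) and 1.07 (SE 0.30), and Alas2, the erythroid enzyme of haem synthesis, by 1.02 (SE 0.27). These were 4 of 7 erythrocyte genes (57.1%, against 1.65% of all genes tested), and the number was 2 without knock-in 4, knock-in 5, 5xFAD 2, 5xFAD 4 or 5xFAD 5. The globin genes have near-identical copies between which reads could be split.

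Of 15 endothelial genes 3 were higher (20%, against 1.65% of all genes tested), Vwf by 0.71 (SE 0.19), the glucose transporter Slc2a1 by 0.45 (SE 0.11) and Ly6c1 by 0.43 (SE 0.12). None was called without 5xFAD 3 or 5xFAD 5, and 1 was without knock-in 2, knock-in 4, knock-in 5, 5xFAD 1 or 5xFAD 2. Their summed level was 455 to 506 CPM in the knock-in and 369 to 427 CPM in 5xFAD. Acta2, the smooth muscle actin of vessel walls, rose by 0.79 (SE 0.19). It was the 1 of 11 mural genes called (9.09%, against 1.65% of all genes tested). Lum, of meningeal fibroblasts, rose by 0.93 (SE 0.26) and was the 1 of 11 in its list called (9.09%, against 1.65%). The summed level of that list was 292 to 527 CPM in the knock-in against 100 to 322 CPM in 5xFAD. The mural list had 4 called without knock-in 1 and 0 in 5 other such fits, and the fibroblast list 2 and 0, the latter in 6 such fits.

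Choroid plexus and ependymal genes were not called in either direction, with 0 of 12 and 0 of 10. Their medians were 1.03 and 0.60. The summed choroid level was 3534 to 11700 CPM in the knock-in and 625 to 5493 CPM in 5xFAD, with knock-in 4 highest and 5xFAD 1 lowest. The choroid median was 0.60 without knock-in 4 and -1.84 with the nuclear noncoding RNA level as a covariate, and the ependymal median was 0.24 without knock-in 1 and 0.39 without 5xFAD 1. The removal of knock-in 4 or 5xFAD 1, like that of several other libraries, lowered the counts of microglial, astrocyte and folding genes, and the part of border tissue in those rises was not tested. Oligodendrocyte markers were not called, 0 of 14, with a summed level of 5878 to 8140 CPM against 3647 to 7280 CPM.

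**Figure D4:**
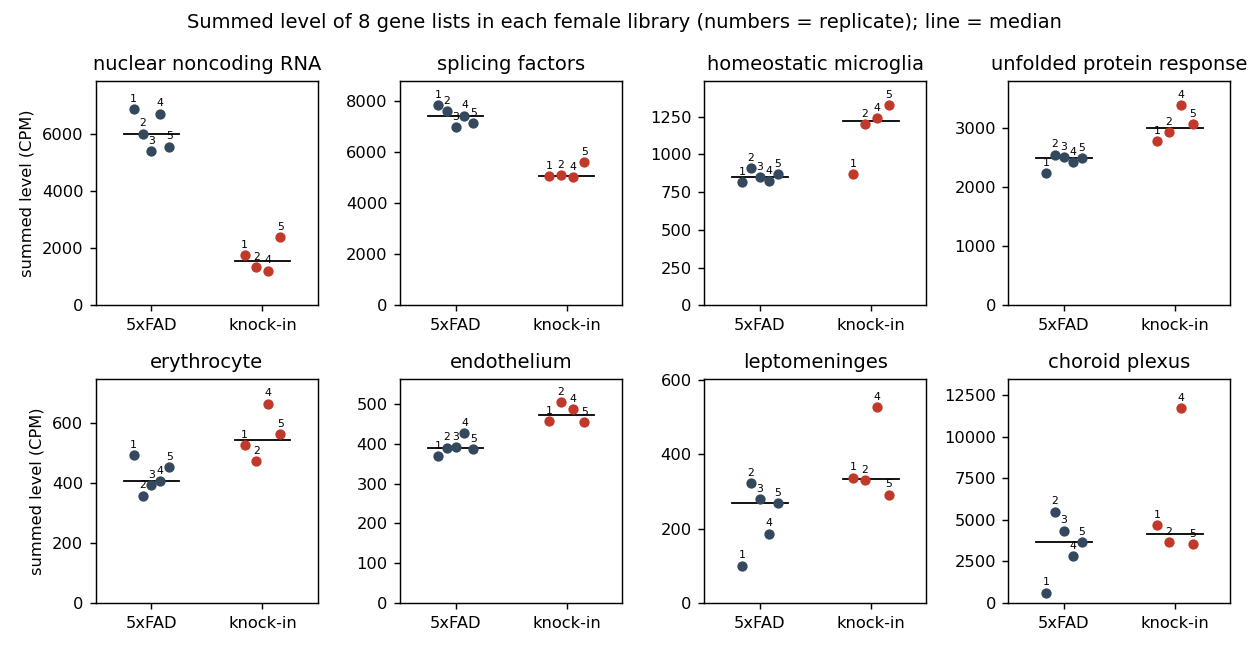
Summed level in CPM of 8 gene lists in each of the 9 libraries, labelled by replicate number, with the group median as a line. Nuclear noncoding RNA, splicing factors, the unfolded protein response and endothelium do not overlap between the groups; homeostatic microglia overlap only through knock-in 1, and choroid plexus is lowest in 5xFAD 1 and highest in knock-in 4.

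Of 13 proteins encoded by the mitochondrial genome, 3 were higher (23.1%, against 1.65% of all genes tested). All 13 differences were above 0 with a median of 0.51, which became -0.36 with the nuclear noncoding RNA level as a covariate. The complex I subunits mt-Nd1, mt-Nd2 and mt-Nd3 rose by 0.51 (SE 0.15), 0.58 (SE 0.16) and 0.53 (SE 0.15). Knock-in 1 had the lowest summed level of its group, 53685 CPM, inside the 5xFAD range of 45926 to 62156 CPM. The number called was 11 without knock-in 1 and 0 without knock-in 2, knock-in 4, 5xFAD 1, 5xFAD 2 or 5xFAD 4. Of 81 cytosolic ribosomal protein genes 1 was higher (1.23%, against 1.65% of all genes tested), Rps4x, by 0.47 (SE 0.12), and the list median was 0.16. Without knock-in 1 the number was 22, and 0 or 1 in the other 8 such fits. None of 37 proteasome genes was called, with a median of 0.15, and none of 22 cholesterol synthesis genes, with a median of 0.07.

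Whether these differences were particular to females was tested as the genotype effect in females minus that in males, in a model of all 19 libraries. Of 18204 genes, 3 were positive (0.0165%) and 53 negative (0.291%), all at an edgeR adjusted p of 0.0499, and 3225 had an unadjusted p under 0.05. The positive genes were Ogfrl1, by 0.77 (SE 0.14), the scaffold protein Lin7c, by 0.69 (SE 0.15), and the inhibitory G protein subunit Gnai1, by 0.65 (SE 0.14). The 5 largest named negatives were Tmc4 (-2.32, SE 0.47), Rnf207 (-1.97, SE 0.41), Lrrc45 (-1.84, SE 0.38), Adamts16 (-1.73, SE 0.35) and Ssh3 (-1.63, SE 0.32). Ssh3 was at 47.0 ± 5.81 CPM in 5xFAD females (SD, n = 5) and 20.04 ± 5.25 CPM in knock-in females (SD, n = 4), against 27.6 ± 7.49 and 36.5 ± 12.01 CPM in the males (SD, n = 5 each).

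Among the other genes named above, Srsf5, the overlap partner Mettl17 and Agrn had a negative difference between the sexes past the threshold, by -1.12, -1.11 and -0.93. None of the named microglial, lysosomal, astrocyte, folding, erythroid or vascular rises did. Leaving out 1 library gave between 0 and 406 negative genes and between 0 and 83 positive ones, and limma-voom gave 0 of either. Both numbers were 0 without any 1 of the 5xFAD female libraries and without knock-in female 1, 2 or 4. The same held without knock-in male 6, 9 or 10 and without 5xFAD male 8, 9 or 10. With every adjusted p at 0.0499, small changes of the fit moved these calls across the threshold.

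**Figure D5:**
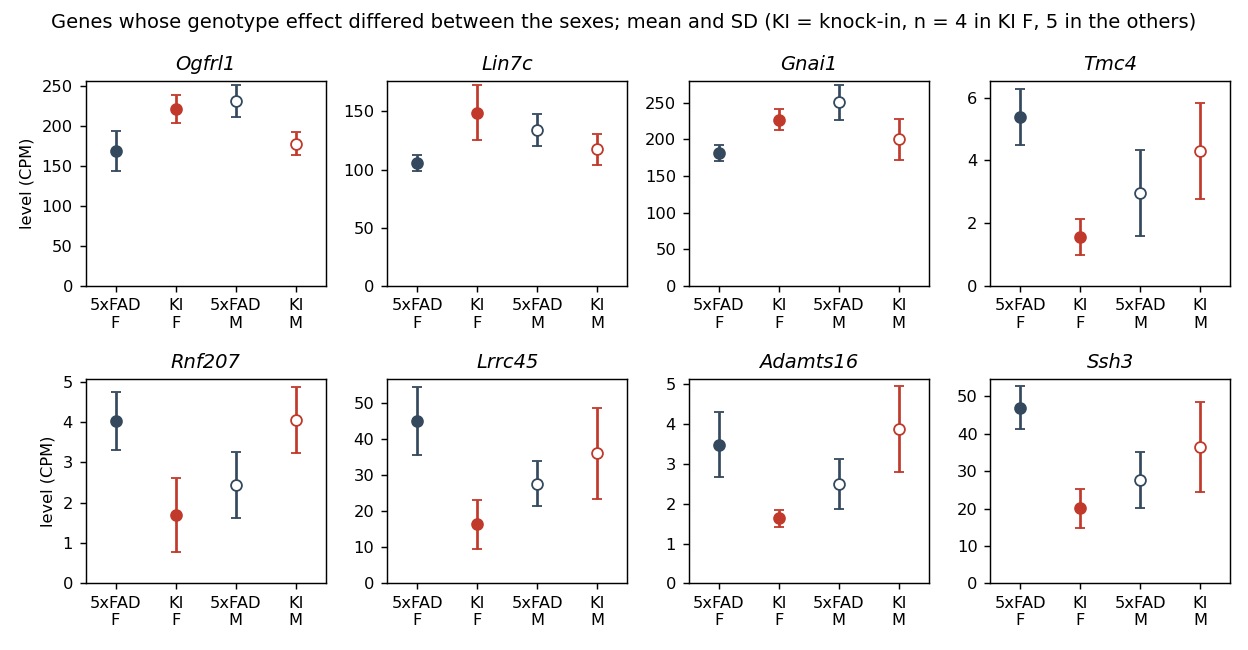
Mean level in CPM, with SD, of the 3 positive and 5 negative named genes of the test between the sexes, in 5xFAD and knock-in (KI) females (F, filled) and males (M, open). In each of the 8 genes the genotype difference has opposite signs in the 2 sexes.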

How the data were processed

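Values were taken from the gene table of estimated counts that the authors deposited, in which each value is an estimated count per gene and library, not normalized. The values fitted were whole numbers. The submitters' processing notes name the mouse build mm39 and, as tools, Salmon, FastQC, Seurat and DESeq2, without saying which step each served, and strandedness is not given in the sources used here. A deposited table of normalized values, a signal that the authors scaled per gene and library, served for 1 alternative, and a variance-stabilized table was not used. Of 20655 gene identifiers, 96.9% matched GENCODE M21, from which symbols, biotypes and lengths were taken.

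The 9 female libraries were fitted with edgeR 4.0.16 in R 4.3.3 (TMM, default filterByExpr, robust quasi-likelihood F-test, Benjamini-Hochberg adjustment). Depth of 17.82 to 25.2 M counts per library (M for mega) limits precision for genes of a few CPM. The 16 pairs of libraries within a group had chi-square values per gene of 10.2 to 51.7, above counting noise, and 19 of 19 libraries matched their labelled sex. Every library is from a different animal, so p-values measure the spread between animals and their handling. The test was tested on simulated counts for 16987 genes of this comparison. There, 72% of 2-fold and 97% of 4-fold changes were recovered with 5 false calls. Whether these values hold for the measured libraries was not tested. The Clu permutation test enumerated all splits.

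Named genes were Clu, App, Thy1, the 15 largest rises and falls among called protein-coding genes whose mean was 1 log2 CPM or more and whose symbol is established, members of gene lists past the threshold, and for the sex comparison up to 5 in each direction; exceptions are marked, and the results of some genes are not reported here. The members and gene lists were chosen with earlier results of these data known, so lists are described by counts and medians. Equal replicate numbers did not deviate together (correlations -0.226 to 0.0591), so they were not used as pairs. Alternatives were DESeq2 1.42.0, limma-voom (limma 3.58.1), other scalings and filters, covariates and leaving out each library. Figures were drawn with matplotlib 3.10.9.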

Additional observations from a re-analysis of the deposited data

Results flagged for a closer look

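In 17 cases a single library lay apart from the rest of its group by Dixon's ratio at the 95% level, among 430 groups of values examined (3.95%), where chance alone gives about 1 in 20. In 5xFAD 1, Rsrp1 was high at 423 CPM against 320 to 344 in the other 4 libraries (ratio 0.74), as was the summed nuclear-encoded respiratory chain (0.721), while Entpd1 (0.715), Gabrg1 (0.753), Fam227a (0.815) and Stt3a (0.967) were low. In 5xFAD 2, Gfap was high at 1136 CPM against 832 to 874 (0.843), as was the summed reactive astrocyte list at 1937 CPM against 1367 to 1480 (0.772), and the pan-neuronal (0.768) and presynaptic release (0.744) lists were low. In 5xFAD 4, Col19a1 at 18.6 CPM against 11.2 to 12.8 (0.731) and Unc13b (0.84) were high, and the hippocampal neuron markers were low at 1372 CPM against 1602 to 1676 (0.775). In knock-in 4, Kcnk9 (0.911) and Phka2 (0.868) were low. In knock-in 5, the summed complement list was high at 908 CPM against 744 to 752 (0.947), as was the summed splicing list at 5608 CPM against 5030 to 5084 (0.903).

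The difference in genotype effect between the sexes passed the test of the difference itself for 11 named genes, in log2 of females minus males. It was positive for Ogfrl1 (0.775), Lin7c (0.692) and Gnai1 (0.650). It was negative for Tmc4 (-2.317), Rnf207 (-1.969), Lrrc45 (-1.838), Adamts16 (-1.726), Ssh3 (-1.628), Srsf5 (-1.119), Mettl17 (-1.114) and Agrn (-0.930). All had an edgeR adjusted p of 0.0499, just under the threshold. No gene passed this test in either direction when any 1 of the 5xFAD female libraries was left out.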

How the results depend on the processing

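Direction held for most named genes, and the calls for falls were steadier than those for rises. Of 84 named falls, 61 kept their call when each library was left out in turn; of 74 named rises, 9 did. Leaving out a library gave 38 to 760 genes higher (fewest without knock-in 4, most without knock-in 1) and 791 to 1381 lower. DESeq2 gave 883 higher and 1627 lower, library size alone 85 and 1727, protein-coding genes alone 114 and 844, the authors' scaling 136 and 882, and a fit of all 19 libraries 206 and 807. The share of called genes that were lower was 82.3% as reported, 64.8% by DESeq2 and 95.3% with library size alone. Limma-voom, other filters, DESeq2's size factors and non-robust dispersions stayed within 1.5 times.

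With replicate number as a block over libraries 1, 2, 4 and 5, 62 genes were higher and 616 lower, against 186 and 1092 in the same 8 libraries unblocked, a fit added after seeing the data. The numbers share nothing in the labels beyond the number.

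With the nuclear noncoding RNA level as a covariate no gene was called (0 higher, 0 lower, 693 at an unadjusted p under 0.05); its values do not overlap between the groups, so the fit leaves little to separate it from genotype. Of the 38 gene lists with a median above 0, 13 then had one below 0, and 4 of the 14 with a median below 0 had one above it. The difference changed sign, at adjusted p near 1, for Clu (-0.15) and for these named genes, in log2. Falls became Ddx46 0.19, Sbsn 0.54, Slc39a2 1.05, Olfr1388 0.14, Mir124a-1hg 0.10, Tnfrsf25 0.69, Col7a1 1.13, C4a 0.44, Col20a1 1.82, Snrnp70 0.63 and Col16a1 0.38. Further falls became Kcnt1 0.60, Col4a2 0.020, Srsf5 0.19, Clk3 0.16, Cacna1g 0.11, Sptbn4 0.75, Unc13a 0.020, Csmd3 0.044, Abca7 0.15 and Grm7 0.10. Rises became Stt3a -0.13, Slc16a1 -0.13, Ssr3 -0.19, Itgb1 -0.076, Ugp2 -0.20, Tmed7 -0.24, Cd9 -0.11, P2ry12 -0.31, mt-Nd1 -0.35 and Prdx1 -0.21. Further rises, and Col1a2 and Col3a1, became Aqp4 -0.24, Serpina3n -0.010, mt-Nd2 -0.47, Magt1 -0.16, Pdia4 -0.032, Itgb8 -0.37, Col3a1 -0.64, Col1a2 -0.045, Lum -0.41 and Gjb2 -0.18.

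Clu passed the exact permutation test only without knock-in 1 (0.39), and its difference was 0.20 to 0.39 over the fits without 1 library, 0.21 to 0.39 by edgeR. The test between the sexes gave 234 positive and 532 negative genes by DESeq2, 0 and 0 by limma-voom, by DESeq2's size factors, without a filter and with the covariate, 3 and 399 with library size alone, and 6 and 59 with a stricter filter. Leaving out a library gave 0 to 83 and 0 to 406, with 0 and 0 without any 1 of the 5xFAD female libraries. Depth limits genes near 1 CPM, such as B3gnt5 and Fam227a.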
